A study of Mus musculus with 6 samples.

Results

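The 32 genes described here carry dietary fat through the intestinal epithelium. Of these, 18 act in fatty acid uptake, esterification, storage and lipoprotein export, and 14 act in fatty acid oxidation. They were chosen by name, with no rule on a measured value, but earlier results of these data were known. In all, 16003 protein-coding genes had at least 1 measured window. Open chromatin was mapped by bulk ATAC-seq, which marks accessible DNA by the cuts of the transposase Tn5. The small intestinal organoids, mini-gut epithelial cultures, came from a single line of a female Lgr5GFPDTR/+ mouse, so both groups share that allele and 1 source animal. RANKL organoids (n = 3) received RANKL, the TNF family cytokine that drives microfold (M) cell differentiation, at 100 ng/ml for 6 days. They had first been given 3 days of 3 µM CHIR99021, a GSK3 inhibitor, with 1.5 mM valproic acid, a histone deacetylase inhibitor, and 1 day in ENR medium, named for its EGF, Noggin and R-spondin. Control organoids (n = 3) were kept in ENR medium for 6 days, and the labels do not say whether they had the same pretreatment, so a difference between the groups cannot be told apart from an effect of it. The replicates were 3 independent differentiation experiments, numbered alike in both groups.

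After a meal, enterocytes take up fatty acids and monoacylglycerol, activate the fatty acids with coenzyme A, and rebuild triacylglycerol in the endoplasmic reticulum. The triacylglycerol is either stored in lipid droplets or loaded by the microsomal transfer protein onto apolipoprotein B and secreted as chylomicrons. Fatty acids that are burned instead enter mitochondria through the carnitine shuttle and are shortened by dehydrogenases, hydratases and thiolases. Electrons from the acyl-CoA dehydrogenases pass through the electron transfer flavoprotein to the respiratory chain.

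Counts were deposited for 55056 windows of 200 bp (GRCm38, also called mm10), and totals ran from 322173 counts (RANKL replicate 1) to 976881 (control replicate 2). Levels are given as counts per 1000000 (CPM) of the library's tested windows or gene sums. On these scales 3 counts were worth 3.95 to 12.2 CPM for windows and 3.92 to 11.7 CPM for gene sums, so low values are coarse. Pairs of controls correlated at a Pearson r of 0.80 to 0.86 over the windows, on log2 CPM, as a description since windows share their library. Pairs of RANKL libraries correlated at 0.64 to 0.75, and a control with a RANKL library at 0.37 to 0.48. All 12 markers of small intestinal epithelium had a window, and their summed level was 1606 to 1672 CPM in controls and 1453 to 1627 CPM in RANKL libraries. Of that list Krt18 was lower (log2 fold change -0.84, edgeR adjusted p 5.43e-04). The summed haematopoietic markers were at 83.7 to 111 CPM in controls and 74.1 to 122 CPM with RANKL, from windows over 1 kb from their ends, with no window for Cd3e, Cd79a, Cd68 or Lyz2 and windows for Ptprc, Itgam, Adgre1 and Csf1r. The mesenchymal list summed to 216 to 286 CPM in controls and 246 to 317 CPM with RANKL, with Pdgfrb higher (1.71, edgeR adjusted p 0.0034). The endothelial list summed to 161 to 241 CPM and 145 to 234 CPM, with Cdh5 higher (1.02, edgeR adjusted p 0.034). The absorptive enterocyte markers, of which 11 of 14 could be tested, had 3 lower, and their summed level was 1339 to 1389 CPM in controls and 1010 to 1081 CPM in RANKL libraries. The M cell markers, of which 8 of 11 could be tested, had 4 higher, with 533 to 591 CPM in controls and 800 to 1017 CPM in RANKL libraries. Beside these marker counts, 6.97% of all gene sums tested were higher and 8.46% lower. The part of these marker shifts in the results that follow was not tested. In a bulk culture, fewer cells of a type and less open chromatin per cell cannot be told apart.

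Of the 32 genes, 31 had windows, 87 in all, and Apoc3, an apolipoprotein that restrains lipoprotein lipase, had none. For each gene the counts were summed over the windows nearest to its ends, at most 50 kb away, and 28 sums passed the filter on low counts. Fabp1, Apoa4 and Hadhb were too low to test, with 1 or 2 windows each. The gene sums of the triacylglycerol synthase Dgat1 and the carnitine acyltransferase Cpt2 rose and that of the pyruvate dehydrogenase kinase Pdk4 fell, while the other 25 were not called. Among all 12468 gene sums tested, 6.97% were higher and 8.46% lower. A call here means an adjusted p at or under 0.05 in edgeR's quasi-likelihood test, with Benjamini-Hochberg adjustment over every gene or window tested. The uptake and export genes had 1 called higher of 15, and none lower. Without adjustment 2 of these 15 were higher and 4 lower at an edgeR p under 0.05, beside 1652 and 1846 of all 12468 gene sums. DESeq2 also called none of the 15 lower. The oxidation genes had 1 higher and 1 lower of 13. The median log2 fold change, RANKL over control, was 0.14 for uptake and export and 0.03 for oxidation, beside 0.01 over all genes tested. The 2 groups did not overlap for 11 of the 28 genes, with RANKL above in 5 and below in 6, beside 30.5% of all genes tested. These shares of called and separated genes are close to those of all genes.

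**Figure D1:**
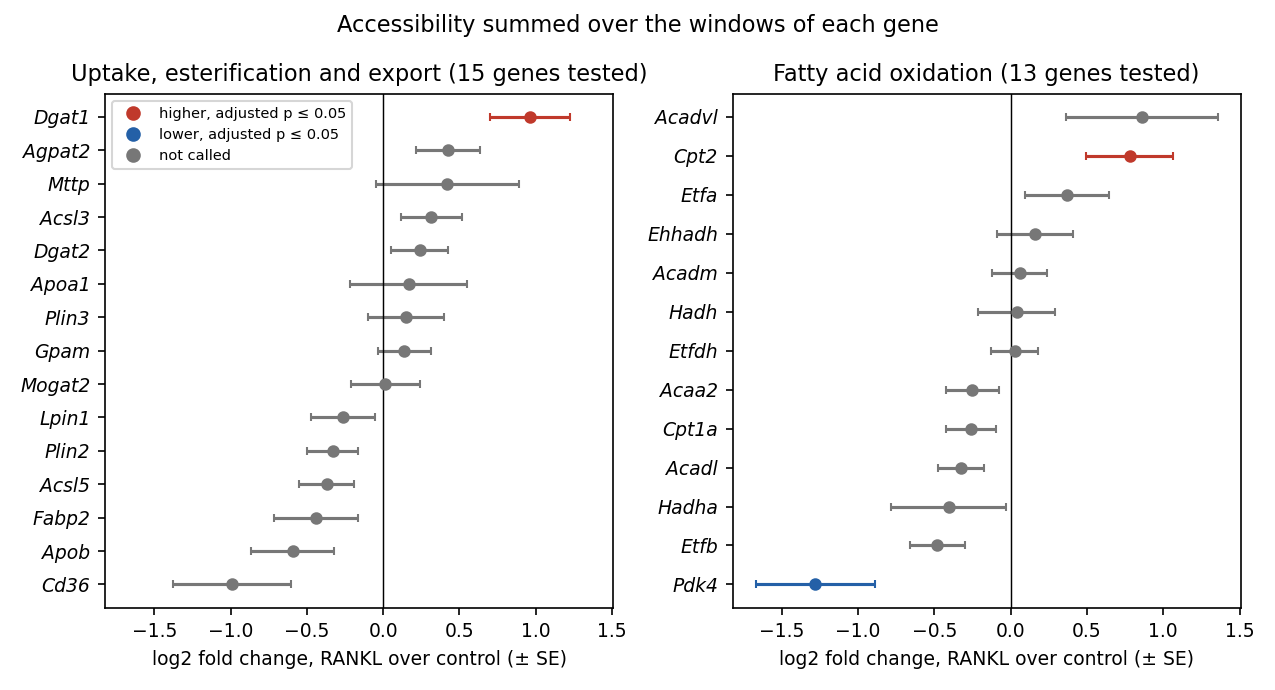
Log2 fold change of the gene sums, RANKL over control, with bars of ± SE, for the 15 uptake and export genes (left) and the 13 oxidation genes (right) that could be tested. Red marks genes called higher, blue genes called lower and grey genes not called; Dgat1 and Cpt2 lie to the right, Pdk4 to the left, and the rest spread on both sides of 0.

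Fatty acid entry was represented by Cd36, the fatty acid translocase, and by the cytosolic fatty acid binding proteins Fabp1 and Fabp2. The Cd36 sum over 3 windows was 38.1, 52.3 and 45.6 CPM in control replicates 1 to 3 and 23.4, 21.8 and 23.0 CPM in RANKL replicates 1 to 3. The RANKL values were close together and all below the controls. The log2 fold change was -0.99 ± 0.38 (SE), and Cd36 missed the threshold (edgeR adjusted p 0.059). The Fabp2 sum over 4 windows was 56.4, 68.0 and 71.2 CPM in controls and 39.0, 49.1 and 50.5 CPM with RANKL. These groups did not overlap either, but the log2 fold change of -0.44 ± 0.28 was not called (adjusted p 0.30). The 1 tested window of Fabp2, 6653 bp from the gene, was at -1.07 ± 0.43 (edgeR adjusted p 0.060), and it was called without RANKL replicate 2 (-1.46, 0.038). Fabp1, the liver-type protein that is abundant in the proximal small intestine, had 1 window with 11, 10 and 4 counts in controls and 1, 3 and 7 counts with RANKL. It was too low to test. On the CPM scale of gene sums its RANKL values of 3.90 to 10.7 lay just below the control values of 11.4 to 15.5. On that of windows the groups overlapped, with RANKL replicate 3 at 11.5 CPM and control replicate 3 at 11.3 CPM.

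Activation and the first acylation steps showed opposite signs in different windows. Acsl3 and Acsl5 are acyl-CoA synthetases, Gpam and Agpat2 acylate glycerol 3-phosphate and lysophosphatidate, and Lpin1 is a phosphatidate phosphatase. Their gene sums were not called, with log2 fold changes of 0.32 for Acsl3, -0.37 for Acsl5, 0.14 for Gpam, 0.43 for Agpat2 and -0.26 for Lpin1. At an end of Agpat2, a window stood at 0.67 ± 0.30 (log2 fold change, edgeR adjusted p 0.10) and was called higher only on dropping control replicate 2 (0.96, 0.04997). Within Acsl5, the sum was 135, 132 and 182 CPM in controls and 121, 104 and 113 CPM with RANKL. Among all 21618 windows tested one by one, 10.0% were higher and 10.0% lower, and 1 window of Acsl5 was among the lower. This window, inside the gene at chr19:55268213-55268412, had 65.9, 64.5 and 87.7 CPM in controls and 65.1, 31.7 and 37.7 CPM with RANKL. RANKL replicate 1 lay within the control range, so the groups overlapped. Its log2 fold change was -0.74 ± 0.27 (edgeR adjusted p 0.033), and the call ended with DESeq2 (0.15), with no filter (0.069) and on dropping control replicate 3 (0.12), RANKL replicate 2 (0.16) or RANKL replicate 3 (0.20).

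Gpam held the window with the largest rise among these genes. It lies 3527 bp outside the gene, beyond the end away from its listed start, at chr19:55064009-55064208. Its counts were 5, 1 and 0 in controls and 10, 9 and 26 with RANKL, or 7.16, 1.32 and 0 CPM against 40.7, 26.0 and 42.6 CPM. Every RANKL library was several times above every control, and the log2 fold change was 3.39 ± 0.63 (edgeR adjusted p 2.35e-06). The window passed the filter on low counts only through the RANKL group, and without RANKL replicate 3 it was not tested. Without control replicate 1, which held 5 of the 6 control counts, the log2 fold change was 4.98. On the other side of the gene, a window 7359 bp away at chr19:55134579-55134778 was below all controls in every RANKL library, with a log2 fold change of -0.71 ± 0.29 (adjusted p 0.063). It was called lower when the experiment number was added as a block (-0.80, adjusted p 0.049). The Gpam sum over 7 windows was 127, 136 and 125 CPM in controls and 133, 153 and 142 CPM with RANKL, and the groups overlapped.

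The final acylation step was covered by Mogat2, which joins fatty acid to monoacylglycerol, and by Dgat1 and Dgat2, which complete triacylglycerol. Dgat1 had a single window, which lies over a gene end at chr15:76511916-76512115. The Dgat1 sum was 45.1, 35.3 and 54.1 CPM in controls and 93.6, 70.9 and 88.8 CPM with RANKL. All RANKL values exceeded all controls, and the log2 fold change was 0.96 ± 0.26 (edgeR adjusted p 0.0036). Tested as a window, against other windows in place of gene sums, the log2 fold change was 1.04 ± 0.24 (adjusted p 3.11e-04). Dropping control replicate 2 or RANKL replicate 3 ended the call of the sum (adjusted p 0.062 and 0.053). The Dgat2 and Mogat2 sums, over 5 and 4 windows, had log2 fold changes of 0.24 ± 0.18 and 0.01 ± 0.23 and overlapping groups. The lipid droplet coat proteins Plin2 and Plin3 had log2 fold changes of -0.33 ± 0.17 and 0.15 ± 0.25, and neither was called.

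The genes of lipoprotein assembly and the apolipoproteins had changes of both signs. Mttp, the transfer protein that lipidates apolipoprotein B, had 1 window, inside the gene, with 26.8, 18.3 and 14.2 CPM in controls and 19.5, 27.3 and 32.2 CPM with RANKL. The groups overlapped (log2 fold change 0.42 ± 0.47, adjusted p 0.60). Apob, the structural protein of chylomicrons, had 84.6, 60.1 and 68.4 CPM in controls and 78.0, 35.5 and 39.8 CPM with RANKL. RANKL replicate 1 lay among the controls and the other two below them, and the log2 fold change of -0.59 ± 0.27 was not called (adjusted p 0.12). Without RANKL replicate 1, the shallowest library, it was -0.90 with an adjusted p of 0.028. Apoa1, the main protein of high-density lipoprotein, had 29.6, 35.3 and 28.5 CPM in controls and 42.9, 40.9 and 27.6 CPM with RANKL, again overlapping (0.17 ± 0.39, adjusted p 0.83).

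Apoa4, a chylomicron apolipoprotein made by enterocytes during fat absorption, lies near Apoa1 on chromosome 9, with Apoc3 between them. The start of Apoa4 gained accessibility. The window over the start, at chr9:46240804-46241003, had its centre 59 bp from it. Its counts were 2, 7 and 3 in controls and 5, 21 and 29 with RANKL. In CPM the values were 2.86, 9.21 and 8.49 against 20.3, 60.6 and 47.5, so all RANKL values lay above all controls. The mean was 6.85 ± 3.47 CPM (SD) in controls and 42.8 ± 20.5 CPM with RANKL, and the log2 fold change was 2.71 ± 0.50 (SE) at an edgeR adjusted p of 2.15e-06. The window passed the filter only through the RANKL group and was not tested without RANKL replicate 3. The 250 bases upstream of the start are given because this was the member whose start changed most. They span chr9:46240594-46240843 on the plus strand (RefSeq, GRCm38.p6), and capitals mark the 40 bases that lie inside the window.
Apoa4 upstream: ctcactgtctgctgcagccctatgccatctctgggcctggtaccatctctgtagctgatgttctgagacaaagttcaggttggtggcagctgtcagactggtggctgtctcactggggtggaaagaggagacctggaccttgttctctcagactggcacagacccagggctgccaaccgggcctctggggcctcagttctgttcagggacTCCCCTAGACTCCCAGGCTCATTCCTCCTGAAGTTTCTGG

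The carnitine shuttle brings long-chain acyl groups into mitochondria, and of its outer and inner enzymes only the inner was called. Cpt1a, the outer and rate-limiting enzyme, had 155, 182 and 168 CPM over 5 windows in controls and 164, 145 and 127 CPM with RANKL. The groups overlapped, with a log2 fold change of -0.26 ± 0.16 (adjusted p 0.30). Cpt2, the inner-membrane enzyme, had 52.2, 34.0 and 28.5 CPM in controls and 78.0, 68.2 and 62.8 CPM with RANKL over 2 windows. The lowest RANKL value lay above the highest control, and the log2 fold change was 0.78 ± 0.29 (edgeR adjusted p 0.046). Whether Cpt1a and Cpt2 differ in their response was not tested. The Cpt2 call sat at the threshold. It was lost when any library other than control replicate 1 was left out (adjusted p 0.084 to 0.19) and with DESeq2 (0.14), no filter (0.052) and 2-kb counts (0.24).

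Most of the Cpt2 signal came from 1 window over its start, at chr4:107923534-107923733, with its centre 44 bp from the listed start. This window had 41.5, 31.6 and 25.5 CPM in controls and 77.3, 72.1 and 63.9 CPM with RANKL. The groups were well apart, the log2 fold change was 1.03 ± 0.29 (edgeR adjusted p 0.0037), and the call was kept without each library in turn. The 250 bases upstream of the Cpt2 start are given because this is the oxidation gene whose start rose. They span chr4:107923590-107923839 and are read on the minus strand (RefSeq, GRCm38.p6), with capitals for the 144 bases inside the window.
Cpt2 upstream: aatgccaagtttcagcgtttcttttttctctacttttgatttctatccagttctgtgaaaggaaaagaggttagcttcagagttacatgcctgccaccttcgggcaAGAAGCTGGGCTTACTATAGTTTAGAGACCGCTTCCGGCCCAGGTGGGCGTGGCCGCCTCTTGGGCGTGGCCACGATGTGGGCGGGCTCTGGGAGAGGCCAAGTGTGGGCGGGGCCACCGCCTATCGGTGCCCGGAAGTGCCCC

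Among the 28 promoters of 27 members found in the RefSeq table (250 bases before to 50 after a start), 4 motifs were searched on both strands. The HNF4 motif CAAAGTCCA occurred in 0, beside 0.475% of all 32851 promoters. The direct repeat core GGTCANAGG occurred in 0, beside 1.72% of all promoters. The NF-kB motif GGANTTTCC also occurred in 0, beside 1.25%. The TATA box TATAAA occurred in 2, those of Fabp1 and Apob, beside 13.6% of all promoters. None of these matches overlapped another motif, and the Apoa4 and Cpt2 promoters held none of the 4. A missing match says only that these letters are not in this window.

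The acyl-CoA dehydrogenases remove the first pair of electrons from acyl chains of different lengths. The sums of Acadm (medium-chain), Acadl (long-chain) and Acadvl (very long-chain) had log2 fold changes of 0.06 ± 0.18, -0.33 ± 0.15 and 0.86 ± 0.50 and were not called. Acadvl had a single window at a gene end, and its RANKL values of 27.3 to 32.7 CPM were all above its control values of 15.5 to 17.1 CPM (adjusted p 0.25). For Acadl the sum over 5 windows was 217, 174 and 205 CPM in controls and 133, 145 and 178 CPM with RANKL, an overlap between the groups. A window 21220 bp upstream of the Acadl start, at chr1:66884430-66884629, fell. It had 57.3, 39.5 and 56.6 CPM in controls and 24.4, 5.77 and 29.5 CPM with RANKL, with no overlap, and its log2 fold change was -1.23 ± 0.36 (edgeR adjusted p 0.0065). Dropping RANKL replicate 2 (adjusted p 0.12) or using DESeq2 (0.054) ended the call, and dropping RANKL replicate 3 gave -1.85. This window passed the filter on low counts through the control group and not through the RANKL group.

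The later steps of the cycle include Ehhadh, the peroxisomal bifunctional enzyme, Hadh, the short-chain hydroxyacyl-CoA dehydrogenase, Hadha and Hadhb, the subunits of the mitochondrial trifunctional protein, and Acaa2, a thiolase. The sums of Ehhadh (0.16 ± 0.25), Hadh (0.04 ± 0.25), Hadha (-0.41 ± 0.37) and Acaa2 (-0.25 ± 0.17) had overlapping groups and were not called. Hadhb had 1 window of its own with 13, 9 and 1 counts in controls and 2, 0 and 4 counts with RANKL, too low to test. Hadha and Hadhb are divergent neighbours, and the window between them, counted under Hadha, lies within 1 kb of both. The Acaa2 sum was 149, 154 and 137 CPM in controls and 93.6, 142 and 129 CPM with RANKL. Of its 5 windows, the farthest fell. It lies 44222 bp outside the gene at chr18:74850330-74850529, where the counts were 29, 27 and 13 in controls and 0, 4 and 9 with RANKL. The CPM values of 41.5, 35.5 and 36.8 against 0, 11.5 and 14.7 did not overlap, and the log2 fold change was -1.82 ± 0.47 (edgeR adjusted p 0.0015). The window passed the filter on low counts only through the control group. At that distance Acaa2 is named only as the nearest gene.

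The electron transfer flavoprotein consists of Etfa and Etfb and hands its electrons to the oxidoreductase Etfdh. Their sums had log2 fold changes of 0.37 ± 0.28, -0.48 ± 0.18 and 0.03 ± 0.16. The Etfb sum over 2 windows was 140, 137 and 182 CPM in controls and 85.8, 106 and 116 CPM with RANKL, without overlap, and missed the threshold (edgeR adjusted p 0.051). It was called lower with the experiment number as a block (-0.56, adjusted p 0.040). It was also called when windows were given to the nearest gene body (-1.66, 0.010). That setting gave the gene-end window to Cldnd2 and kept the called window described below, so it adds no separate evidence. Of the 2 windows of Etfb only 1 was called. The one at the gene end, which lies inside the neighbour Cldnd2, had a log2 fold change of -0.16 ± 0.18. The one inside Etfb, at chr7:43454019-43454218, had 25.8, 38.1 and 50.9 CPM in controls and 8.14, 8.66 and 16.4 CPM with RANKL. It fell by 1.56 ± 0.46 on the log2 scale (edgeR adjusted p 0.0067), with no overlap, and was not tested without control replicate 2. It passed the filter on low counts only through the control group.

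Pdk4 inhibits pyruvate dehydrogenase and so shifts cells from glucose to fatty acid oxidation, and it had the largest fall among the gene sums. Over 2 windows it had 50.8, 39.2 and 57.0 CPM in controls and 3.90, 16.4 and 29.1 CPM with RANKL. The RANKL libraries differed widely among themselves, yet all were below the lowest control. The mean was 49.0 ± 9.0 CPM (SD) in controls and 16.5 ± 12.6 CPM with RANKL, so the log2 fold change was -1.28 ± 0.39 (SE) at an edgeR adjusted p of 0.012. DESeq2 did not call it (adjusted p 0.068), nor did edgeR once control replicate 1 (0.069) or RANKL replicate 1 (0.081) was dropped. Dropping RANKL replicate 3 gave a log2 fold change of -2.08. The tested window lies 13664 bp upstream of the start, at chr6:5509843-5510042. There the counts were 30, 26 and 17 in controls and 1, 3 and 16 with RANKL, and the log2 fold change was -1.34 ± 0.42 (edgeR adjusted p 0.011). The window passed the filter on low counts through the control group and not through the RANKL group. DESeq2 did not call this window (adjusted p 0.063), nor did edgeR once RANKL replicate 1 (0.064) or 2 (0.081) was dropped, and it was -2.55 on dropping RANKL replicate 3. The other Pdk4 window was too low to test, so the calls of the sum and of this window rest largely on the same reads. Neither window lies within 1 kb of the gene, and Pdk4 is named only as the nearest gene.

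**Figure D2:**
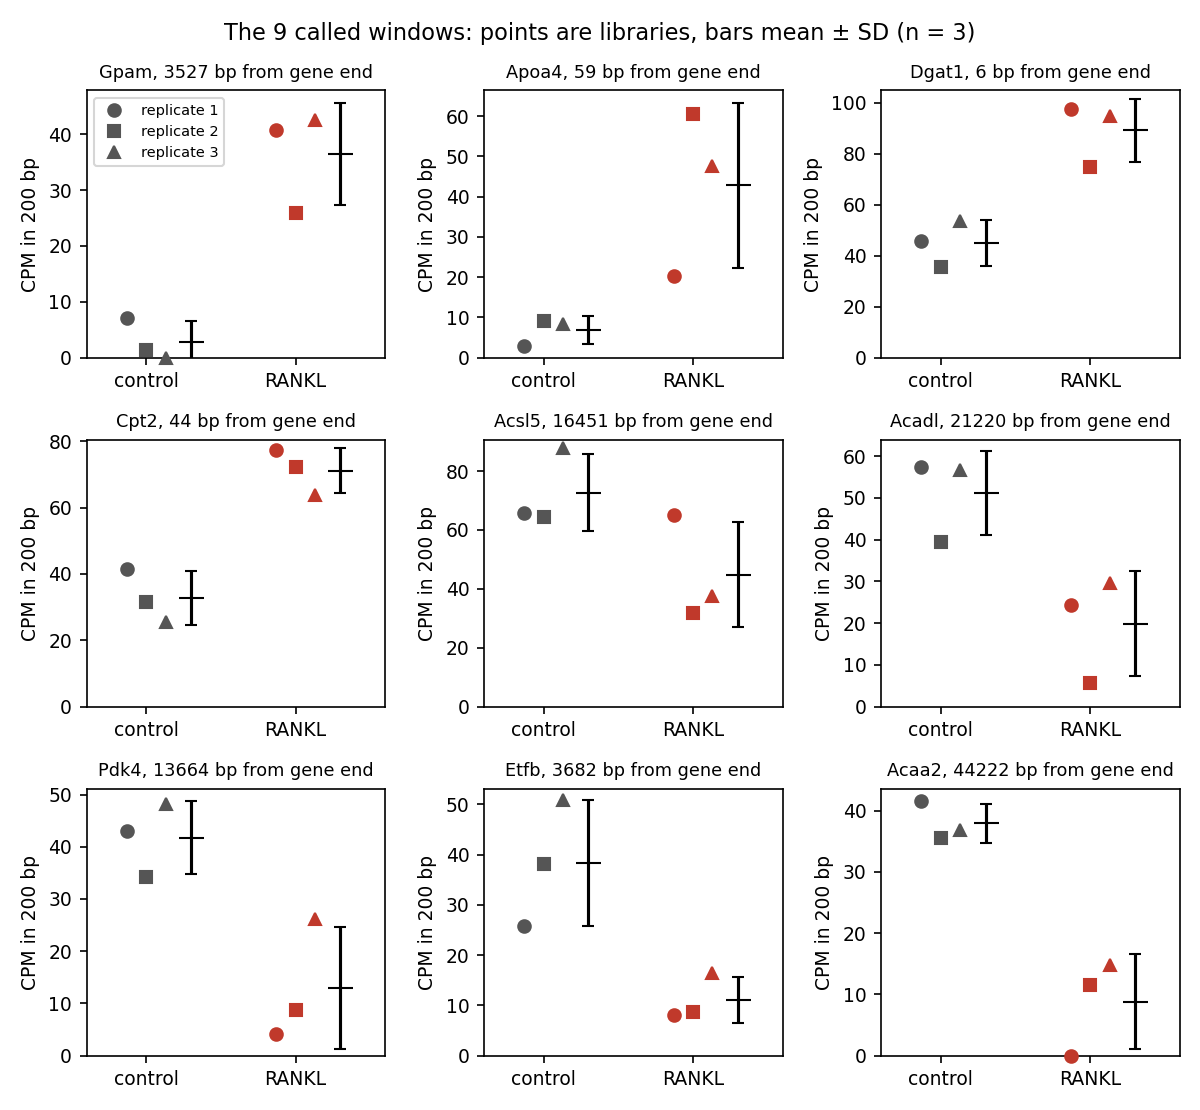
CPM in each of the 9 called member windows, with 1 point per library (symbol by replicate) and bars of mean ± SD (n = 3 per group) beside them. Gpam, Apoa4, Dgat1 and Cpt2 are higher with RANKL, the other 5 lower, and only the Acsl5 window has overlapping groups; in the Gpam panel the lower bar of the controls runs below the axis.

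Across the 87 windows of these genes, 49 in 29 genes could be tested, and 9 in 9 genes were called, 4 higher and 5 lower, beside 10.0% higher and 10.0% lower of all windows tested. The uptake and export windows had 3 higher (Gpam, Apoa4 and Dgat1) and 1 lower (Acsl5) of 28. The oxidation windows had 1 higher (Cpt2) and 4 lower (Acadl, Acaa2, Etfb and Pdk4) of 21. With 9 called windows in 9 genes, no gene could hold called windows in both directions. Of the 12 genes with 2 or more tested windows, 6 had log2 fold changes on both sides of 0. The groups did not overlap in 15 of the 49, beside 33.4% of all windows tested.

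The called windows near gene ends were higher and most of those farther away lower, and calls over all windows leaned the same way. Of the 23 windows within 1 kb of a gene end, 3 were higher (13.0%) and none lower, beside 9.22% and 2.92% of all 8178 windows so placed. None of these 23 had an unadjusted p under 0.05 on the lower side in edgeR, beside 509 of the 8178. DESeq2 called none of the 23 lower. Of the 26 farther away, 1 was higher (3.85%) and 5 lower (19.2%), beside 10.5% and 14.4% of all 13440 such windows. The median log2 fold change was 0.23 near gene ends and -0.24 farther away for these genes, beside 0.15 and -0.14 over all windows. The called shares and the medians over all windows have the same order, so this order is not particular to these genes. Whether the shares differ from those of all windows was not tested. None of the 9 called windows had another protein-coding gene end within 1 kb, but 5 tested windows that were not called did, those shared by Acsl3 with Utp14b, Lpin1 with Ntsr2, Hadha with Hadhb, Etfb with Cldnd2 and Etfdh with 4930579G24Rik.

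**Figure D3:**
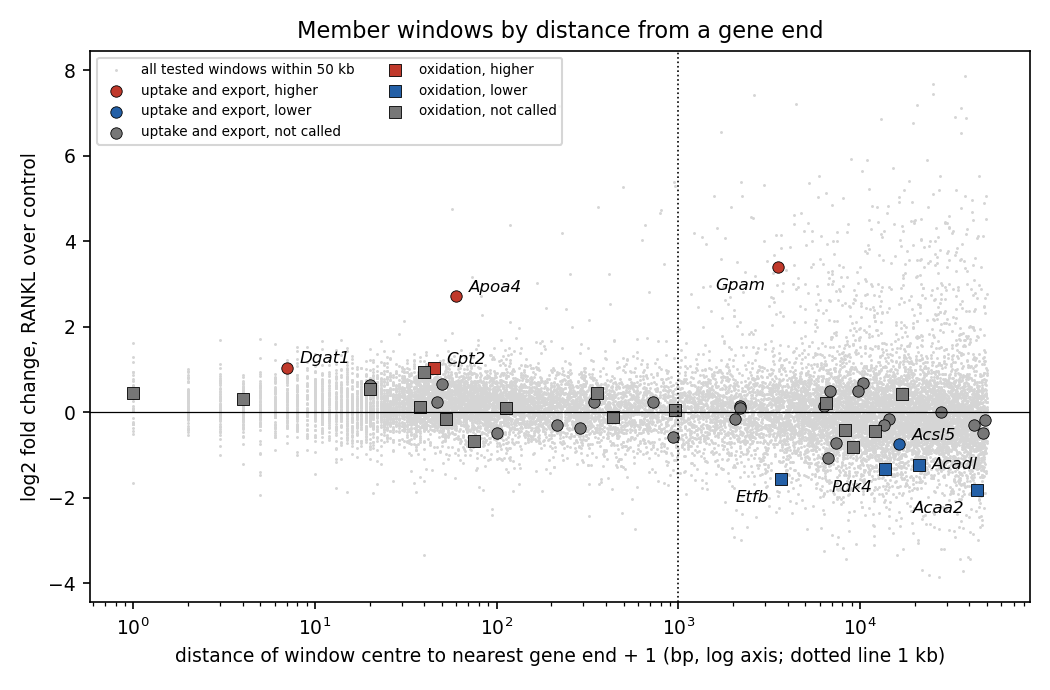
Log2 fold change of the 49 tested member windows against the distance from the window's centre to the nearest gene end (plus 1 bp, log axis), over all tested windows within 50 kb in light grey. Circles are uptake and export genes and squares oxidation genes; called higher windows (red) lie mostly left of the dotted line at 1 kb, and all called lower windows (blue) right of it.

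The width of the counted region changed some signs. Counts in 2 kb around the same centres could be recovered from the second deposited table, and the central 200 bp held 39.9% to 41.0% of those reads in controls and 33.9% to 36.5% in RANKL libraries. Over all tested windows the median log2 fold change was 0.01 in 200 bp and -0.18 in 2 kb. Of the 23 member windows near gene ends, 20 had a lower log2 fold change in 2 kb than in 200 bp, as did 87.0% of all such windows, and 9 had opposite signs. The start of Hadh was at a log2 fold change of 0.32 ± 0.31 in 200 bp and not called (edgeR adjusted p 0.52). Its RANKL values of 40.7 to 60.6 CPM began just above the control values of 35.8 to 39.6 CPM. In 2 kb it was at -0.56 and called lower (edgeR adjusted p 0.015). In 2 kb, Apoa4 (1.17, adjusted p 0.0060), Gpam (1.55, 9.98e-05) and Dgat1 (0.58, 0.023) remained higher, and the Cpt2 window was not called (0.42, 0.21). The 5 lower windows remained lower, and windows of Apob (-0.89, 1.30e-04), Plin2 (-1.11, 0.014), Hadh and the start of Etfb (-0.51, 0.0075) were called lower as well. Over all windows counted in 2 kb, 8.37% were higher and 10.2% lower. Summed by gene, the 2-kb counts called Gpam, Agpat2, Apoa4 and Dgat1 higher and Acsl5, Apob, Plin2, Etfb and Pdk4 lower, beside 9.37% higher and 12.3% lower of all genes.

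**Figure D4:**
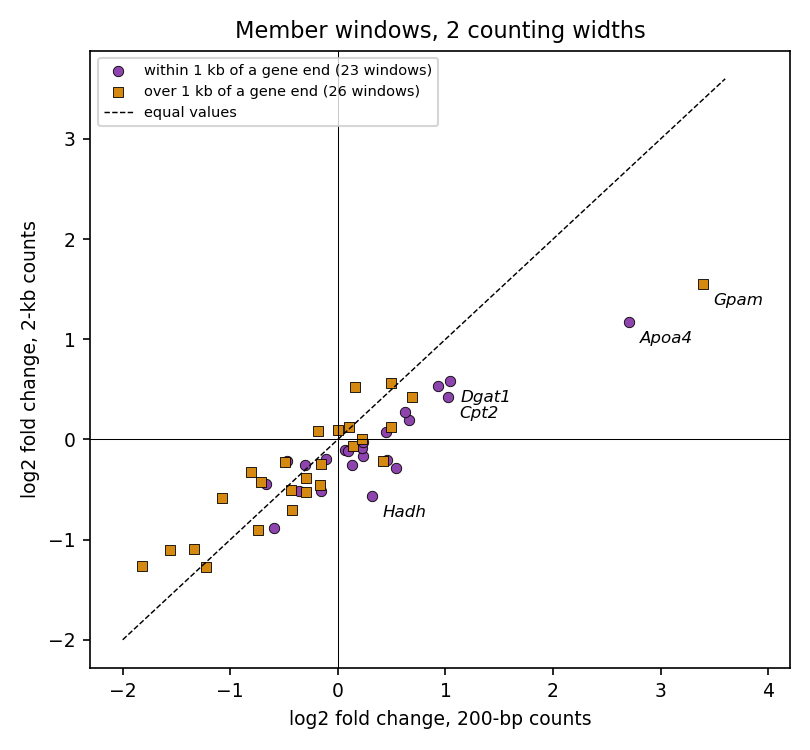
Log2 fold change of the 49 tested member windows in 2-kb counts (vertical) against 200-bp counts (horizontal), with circles for windows within 1 kb of a gene end, squares for those farther away and a dashed line of equal values. Most circles lie below the line, and Hadh is positive in 200 bp and negative in 2 kb.

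Other genes of the same pathways were also called in both directions. Of 34 further genes of uptake, storage and export, 28 could be tested, with 2 gene sums higher and 2 lower, beside 6.97% higher and 8.46% lower of all genes. Slc27a4, a fatty acid transport protein, had 46.5, 41.8 and 22.8 CPM in controls and 78.0, 68.2 and 70.4 CPM with RANKL (log2 fold change 0.86 ± 0.28, edgeR adjusted p 0.021). Mogat1, a monoacylglycerol acyltransferase, rose by 0.72 ± 0.27 (edgeR adjusted p 0.046). Abcg8, a subunit of the sterol exporter, and Apobec1, the enzyme that edits the Apob transcript, fell by 0.62 ± 0.22 and 0.59 ± 0.18 (edgeR adjusted p 0.036 and 0.010). All 4 had RANKL values wholly on one side of the controls, and all 4 calls were lost with DESeq2 (adjusted p 0.065 to 0.18). Slc27a4 was not called without control replicate 3, RANKL replicate 1 or RANKL replicate 3 (adjusted p 0.052 to 0.099), and Apobec1 without control replicate 3 or RANKL replicate 1 (0.090 and 0.051). Abcg8 stayed called only without RANKL replicate 2 (0.045; otherwise up to 0.13), and Mogat1 only without control replicate 1 (0.017; otherwise up to 0.40). Slc27a4 was also not called in 2-kb counts (0.37, adjusted p 0.19), Apobec1 in windows within 1 kb (-0.0080, 0.99), Abcg8 by nearest gene body (-0.18, 0.76) and Mogat1 with no filter (0.73, 0.053). With the experiment number as a block, Mogat1 was not called (adjusted p 0.063). In 2-kb counts, Scarb1 (0.47, edgeR adjusted p 0.0054) and Npc1l1 (0.86, 0.024) were called higher. Slc27a2 (-0.76, 5.52e-06), Acsl4 (-0.75, 0.0037), Ces1d (-0.73, 0.0044) and Gpat3 (-0.57, 0.013) were called lower there. Of all genes, 9.37% were higher and 12.3% lower in 2-kb counts. On dropping a library, Pnpla2 and Abcg5 were called higher and Ces1d and Slc27a2 lower in some fits.

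Of 34 further genes of oxidation, ketone metabolism and their regulation, 29 could be tested, with 1 gene sum higher and 2 lower, beside the same 6.97% and 8.46%. Bdh1, which interconverts the ketone bodies, had 161, 153 and 154 CPM over 8 windows in controls and 218, 245 and 240 CPM with RANKL. These groups were well apart, and the log2 fold change was 0.60 ± 0.14 (edgeR adjusted p 8.42e-04), and the call was kept without each library in turn. Oxct1, the enzyme that activates ketone bodies for use, had 216, 243 and 231 CPM in controls and 191, 142 and 182 CPM with RANKL, and fell by 0.42 ± 0.14 (adjusted p 0.029). Hsd17b4, the peroxisomal multifunctional protein, fell by 0.62 ± 0.20 (adjusted p 0.021). The Oxct1 and Hsd17b4 calls were lost with DESeq2 (adjusted p 0.13 and 0.0995). Dropping control replicate 2 or RANKL replicate 2 ended the Oxct1 call (0.15 and 0.20), and dropping control replicate 1, control replicate 3 or RANKL replicate 2 ended that of Hsd17b4 (0.063, 0.052 and 0.22). In windows within 1 kb neither was called (Oxct1 -0.51, adjusted p 0.11; Hsd17b4 -0.30, 0.56). The nuclear receptors Ppara, Ppard and Pparg had log2 fold changes of -0.09, 0.21 and 0.15 and were not called. In 2-kb counts Ppard was called higher (0.43, edgeR adjusted p 0.024) and Crot lower (-0.57, 3.14e-04). Crot was also called lower without RANKL replicate 2 (-0.64, edgeR adjusted p 0.034). With the experiment number as a block, the acetyl-CoA carboxylase Acacb was called higher (0.85, adjusted p 0.049) and the coactivator Ppargc1a lower (-0.78, 0.036). Ppargc1a was also called lower in windows within 1 kb (-1.26, edgeR adjusted p 0.013), by nearest gene body (-0.45, 0.039) and in 2-kb counts (-0.65, 0.0044). Acacb was also called higher without control replicate 2 (1.20, 0.017).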

How the data were processed

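Raw read counts in 200-bp windows were deposited by the authors for 6 ATAC-seq libraries, and a second deposited table holds a score per 2-kb window. Its values are those of ln(count + 1), a natural log, centred and scaled per library, and the deposited score gave back 2-kb counts within 0.0084 of whole numbers. DESeq2 1.34.0, MACS2 2.2.7, BWA 0.7.17, fastp 0.20.1 and Picard are listed in the submitters' processing notes, without roles. The choice of windows, the treatment of duplicates and any Tn5 shift are not given in the sources used. Fixed windows can miss part of a broad region.

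Each window was given to the nearest end of a protein-coding gene (RefSeq, GRCm38.p6) within 50 kb, which placed 38494 windows (69.9%). Exons and introns were not distinguished. The 32 genes, the further pathway and marker lists and the rule for the genes named were chosen with earlier results of these data known. All 32 members are accounted for, and every library's value is given for called genes and windows and for 9 genes named in the rule. Of the further pathway genes, the called ones are named. Ppara, Ppard, Pparg and the genes called only in an alternative setting, Acacb and Ppargc1a among them, were named after their values were seen.

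The count test was that of edgeR 4.0.16 (R 4.3.3) (a robust quasi-likelihood fit on counts kept by filterByExpr, with TMM factors of 0.98 to 1.02 and no covariate) at a Benjamini-Hochberg adjusted p of 0.05 over all features. The method was tested on simulated data first. The SE was derived from the F statistic, as the size of the log2 fold change over its square root. CPM are scaled to the counts of all features tested at that level. The labels give both groups the same experiment numbers, 1 to 3. The test did not use them, and a fit with the number as a block is given where it changes a call. Across windows, the deviations of same-numbered libraries correlated at -0.031, 0.016 and -0.011, so the data show no pairing. Libraries of 1 organoid line replicate the experiment, not the animal, so p-values measure the spread between experiments. The alternatives were the replicate block, DESeq2 size factors, the DESeq2 1.42.0 test, no filter, leaving out each library, windows within 1 kb, the nearest gene body and 2-kb counts.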

Additional observations from a re-analysis of the deposited data

How the results depend on the processing

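Single libraries and the choice of test decided many calls, and 38 of the 87 member windows were too low to test. Of all gene sums, 869 were higher and 1055 lower; DESeq2 called 407 and 487, 2-kb counts 1462 and 1923, and windows within 1 kb 219 and 300, and leaving out 1 library gave 544 to 845 and 681 to 934. Of all windows, 2166 were higher and 2169 lower; DESeq2 called 1264 and 1039 and 2-kb counts 4181 and 5076, while removing the filter gave 3204 higher, and leaving out 1 library gave 1337 to 2802 and 1475 to 2229.

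For uptake and export, the 1 higher and 0 lower gene sums became 2 higher with no filter, 4 higher and 3 lower in 2-kb counts, and 0 to 2 higher and 0 to 1 lower without 1 library. Their windows, 3 higher and 1 lower, had 2 lower under the replicate block, 0 lower with DESeq2 and with no filter, 3 lower in 2-kb counts, and 1 to 4 higher and 0 to 1 lower without 1 library. For oxidation, the 1 higher and 1 lower gene sums became 0 higher and 0 lower with DESeq2, 0 higher with no filter, 0 higher and 2 lower in 2-kb counts, 2 lower under the replicate block and by nearest gene body, 0 lower within 1 kb, and 0 to 1 in each direction without 1 library. Their windows, 1 higher and 4 lower, had 2 lower with DESeq2, 0 higher and 6 lower in 2-kb counts, and 2 to 4 lower without 1 library. Some changes follow from which genes and windows were counted. The unfiltered second gene is Apoa4 (2.24, edgeR adjusted p 1.17e-05), which the filter removed. Pdk4, the lower oxidation gene, had no window within 1 kb. By nearest gene body, Etfb lost its gene-end window to Cldnd2. The cause of the other changes was not tested.

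The gene sums whose log2 fold change turned sign were all among those not called, and 12 of the 49 tested member windows had opposite signs in 200 bp and 2 kb. In 2-kb counts these were Plin3 (-0.038), Acadm (-0.20), Hadh (-0.37), Ehhadh (-0.15) and Etfdh (-0.066). In windows within 1 kb they were Mogat2 (-0.61), Acadm (-0.015), Acaa2 (0.32) and Etfdh (-0.048), by nearest gene body Lpin1 (0.047), with DESeq2 Mogat2 (-0.026), and under the replicate block Mogat2 (-0.087) and Hadh (-0.035). Without 1 library, Mogat2 ranged from -0.51 to 0.23, Hadh from -0.13 to 0.17, Ehhadh from -0.14 to 0.30 and Etfdh from -0.088 to 0.28. Apart from Etfb, Mogat1, Acacb, Ppargc1a and the upstream Gpam window, the replicate block changed no call of a gene or window named here. DESeq2 size factors in place of TMM kept the call of each of the 44 gene sums and windows compared, members and called pathway genes, and it called Acacb higher (0.78, adjusted p 0.04995).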
